A study of Mus musculus with 7 samples.

Results

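The G1 cyclins and the inhibitors of their kinases were followed in 3T3-L1 cells exposed to exosomes from mouse fat. The 10 genes were taken by name from the deposited gene counts, and all 10 were found among its 34745 genes: the D-type cyclins Ccnd1, Ccnd2 and Ccnd3, the E-type cyclins Ccne1 and Ccne2, the CIP/KIP inhibitors Cdkn1a and Cdkn1b, and the INK4 inhibitors Cdkn2a, Cdkn2b and Cdkn2c. All 10 reached the minimum of 1 CPM (the count scaled to library size, with TMM factors of edgeR) used below in every library.

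3T3-L1 is a mouse embryonic fibroblast line, labelled WT, that is turned into adipocytes with insulin, IBMX and dexamethasone. The cells were used at days 8 to 10 of differentiation. There were 7 groups with 1 library each: an untreated control (BLK) and 6 that received adipose tissue exosomes (AT-Exos) for 48 h. The donors were wild-type C57BL/6 mice on either a low-fat (LFD) or a high-fat diet (HFD), and each diet gave exosomes of inguinal white fat (LFD-iWAT-Exos and HFD-iWAT-Exos), visceral white fat (LFD-vWAT-Exos and HFD-vWAT-Exos) and brown fat (LFD-BAT-Exos and HFD-BAT-Exos). The labels give neither the age nor the number of the donors behind a library, and all groups share 1 cell line. The labels call the control untreated, whereas the study's figure legends name a PBS buffer, and which was used for this library was not settled here.

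With 1 library per group there was no test between 2 groups. Each ratio between 2 libraries is given with an exact 95% counting interval, which covers counting error and not the spread between cultures. A gene is called apart here where the ratio reached 2-fold with an interval that excluded equal levels.

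Progression from G1 into S phase depends on cyclin-dependent kinases. D-type cyclins activate CDK4 and CDK6 in response to mitogens, E-type cyclins activate CDK2, and both kinases phosphorylate RB and so release E2F, which turns on genes of DNA replication. INK4 proteins block CDK4 and CDK6, whereas p21 and p27 of the CIP/KIP family bind cyclin-CDK complexes and inhibit CDK2. In 3T3-L1 cells, confluent preadipocytes go through a few rounds of division after the hormone mix and then leave the cycle as they differentiate.

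Total counts ranged from 13493560 in LFD-vWAT-Exos to 24345291 in LFD-iWAT-Exos. LFD-vWAT-Exos was unlike the other libraries. It lay outside their range by any amount for 79.9% of 12935 genes, and by at least 2-fold for 19.3%, against 0.101% to 0.302% for each other library. Mitochondrially encoded genes took 1.10% of its counts, against 2.19% to 2.60% in the others. Of 13 adipocyte markers, 9 stayed under 1 CPM in every library: Adipoq, Plin1, Cfd, Retn, Lep, Slc2a4, Cidec, Cebpa and Car3. The rest were expressed in every library: Lpl at 216 to 1212 CPM, Fabp4 at 75.0 to 174, Plin4 at 35.7 to 94.6 and Pparg at 12.5 to 21.5. The summed level of 9 fibroblast markers was 28920 to 56250 CPM. In LFD-vWAT-Exos, the summed adipocyte markers, chiefly Lpl, stood at 349 CPM (1163 to 1442 elsewhere). The summed fibroblast markers stood at 28920 CPM there (46730 to 56250 elsewhere). The 9 macrophage markers summed to 40.5 CPM there and to 9.37 to 13.8 CPM elsewhere, with 5 of them under 1 CPM throughout, including Adgre1 and Ptprc. The summed endothelial markers stayed between 0.729 and 2.96 CPM and the lymphocyte markers between 0.0456 and 0.610 CPM, while skeletal muscle markers, chiefly Tnnt3, summed to 0.702 CPM in LFD-vWAT-Exos and 7.25 to 10.7 CPM elsewhere. In bulk RNA, fewer cells of a type and less RNA per cell cannot be told apart. The part of these differences in the results below was not tested.

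The genes lie on 4 chromosomes of GRCm38, as annotated in GENCODE vM21, and all are protein-coding. Ccnd1 is on chromosome 7 (144929931 to 144939925, minus strand) and Ccne1 on the same chromosome (38097984 to 38107534, minus strand). Cdkn1a is on chromosome 17 (29090976 to 29100727, plus strand) with Ccnd3 (47505051 to 47599691, plus strand). Ccnd2 (127125162 to 127152193, minus strand) and Cdkn1b (134920401 to 134925513, plus strand) are on chromosome 6. Chromosome 4 carries Ccne2 (11191351 to 11204779, plus strand), Cdkn2a (89274471 to 89294653, minus strand), its neighbour Cdkn2b (89306299 to 89311039, minus strand) and Cdkn2c (109660876 to 109667189, minus strand).

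Of the 10 genes, 7 had promoter entries from RefSeq (GRCm38.p6), each holding 250 bases before and 50 after an annotated start. Shown are those of the genes that stood furthest from the control in the LFD-vWAT-Exos library and have an entry. Cdkn2a is shown at both of its starts, because transcripts from the upstream start encode p19ARF and those from the downstream start p16INK4a, and the gene count adds them together. Capitals mark GC boxes (GGGCGG on either strand) and E2F sites (TTTGGCGC, TTTCCCGC, TTTGCCGC or TTTCGCGC on either strand). All are written 5′ to 3′ on the strand of the gene.
Cdkn2a, upstream start, chr4:89294570-89294869, minus strand: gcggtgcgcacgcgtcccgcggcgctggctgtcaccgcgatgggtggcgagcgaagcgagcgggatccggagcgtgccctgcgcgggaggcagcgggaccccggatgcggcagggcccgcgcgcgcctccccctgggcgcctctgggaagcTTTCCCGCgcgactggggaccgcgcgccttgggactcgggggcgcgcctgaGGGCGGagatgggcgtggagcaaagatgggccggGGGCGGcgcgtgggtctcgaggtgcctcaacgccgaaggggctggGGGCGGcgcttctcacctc
Cdkn2a, downstream start, chr4:89282143-89282442, minus strand: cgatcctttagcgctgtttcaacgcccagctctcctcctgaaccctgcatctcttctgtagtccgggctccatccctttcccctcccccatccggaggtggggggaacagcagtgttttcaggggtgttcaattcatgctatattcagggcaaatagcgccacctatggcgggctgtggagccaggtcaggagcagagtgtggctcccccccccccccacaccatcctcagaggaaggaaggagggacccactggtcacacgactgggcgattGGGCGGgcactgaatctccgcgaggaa
Cdkn1a, chr17:29093519-29093818, plus strand: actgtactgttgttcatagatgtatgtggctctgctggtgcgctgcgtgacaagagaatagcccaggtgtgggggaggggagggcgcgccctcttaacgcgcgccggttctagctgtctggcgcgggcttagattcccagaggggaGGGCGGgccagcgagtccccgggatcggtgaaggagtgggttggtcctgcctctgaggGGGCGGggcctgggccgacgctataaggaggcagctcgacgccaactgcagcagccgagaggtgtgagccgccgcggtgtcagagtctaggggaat
Ccne1, chr7:38107441-38107740, minus strand: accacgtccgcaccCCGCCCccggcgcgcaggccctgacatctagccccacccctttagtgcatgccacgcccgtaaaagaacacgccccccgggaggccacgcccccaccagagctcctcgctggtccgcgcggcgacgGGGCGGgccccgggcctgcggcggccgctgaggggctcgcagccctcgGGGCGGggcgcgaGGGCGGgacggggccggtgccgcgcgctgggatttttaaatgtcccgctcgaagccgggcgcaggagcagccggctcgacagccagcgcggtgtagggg

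The upstream Cdkn2a window held 1 E2F site and 3 GC boxes, and the downstream window 1 GC box. Cdkn1a has 2 entries: the window shown held 2 GC boxes, and the window at its other start (chr17:29090729-29091028, plus strand) held 0. The Ccne1 window held 4. Over all 32851 promoter windows of this length, 35.7% held a GC box and 2.26% an E2F site. These are matches of letters only. A further search for CRE (TGACGTCA), AP-1 (TGAGTCA or TGACTCA) and E-box (CACGTG) letters on both strands found a CRE in Cdkn2b and an E-box in 1 of the windows of Cdkn2c, against 1.79% and 7.15% of all windows, and no AP-1 site (5.2% of all windows).

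**Figure D1:**
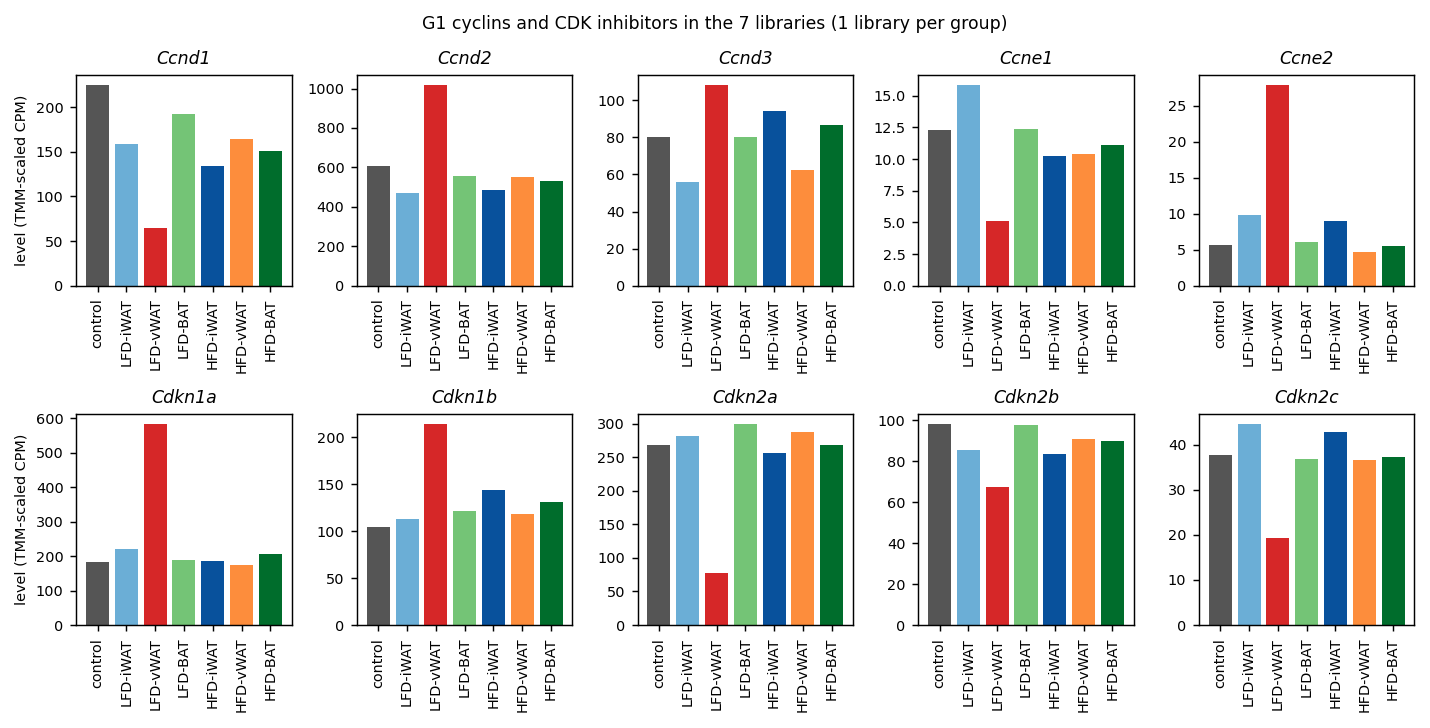
Level of each gene (TMM-scaled CPM, linear axes from 0, 1 bar per library) in the 7 libraries. The LFD-vWAT-Exos bar is the highest or the lowest in all 10 panels, while Ccnd1 is highest in the control at 225 CPM.

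The cyclin D1 transcript was lower in every exosome library than in the control. Ccnd1 encodes the D-type cyclin most tied to mitogen signals. Its level was 225 CPM in the control, 192 in LFD-BAT-Exos, 164 in HFD-vWAT-Exos, 159 in LFD-iWAT-Exos, 151 in HFD-BAT-Exos, 134 in HFD-iWAT-Exos and 64.3 in LFD-vWAT-Exos. The control was the highest and LFD-vWAT-Exos the lowest, while HFD-vWAT-Exos, LFD-iWAT-Exos and HFD-BAT-Exos lay close together. Against the control, Ccnd1 was 1.17-fold lower with LFD-BAT-Exos (interval 1.13 to 1.22), 1.68-fold lower with HFD-iWAT-Exos (1.60 to 1.76) and 3.50-fold lower with LFD-vWAT-Exos (3.25 to 3.77). All 6 intervals excluded equal levels. With LFD-iWAT-Exos the intervals of all 10 genes did so, and the share over all genes was not computed. The control was outside the range of the 6 exosome libraries for 3 of the 10 genes, Ccnd1 and Cdkn2b above and Cdkn1b below, near the 25.2% of all genes for which this was so.

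Of the exon bases of Ccnd1, 23.4% lie in exons of Oraov1 on the opposite strand (LTO1 in the annotation). The libraries kept the strand, but whether counting used it is not given in the sources used here, so the Ccnd1 level is uncertain to that extent. Oraov1 itself stood at 13.0 to 16.5 CPM in all 7 libraries, and its ratio of LFD-vWAT-Exos to the control was 0.936 (0.778 to 1.12). For Ccne2, 17.4% of exon bases lie in exons of Ints8 on the opposite strand, which stood at 45.7 CPM in LFD-vWAT-Exos and 35.9 to 39.0 CPM elsewhere.

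Cyclin D2 is another D-type partner of CDK4 and CDK6. Its transcript was lower than in the control in 5 exosome libraries and higher in the remaining library. Ccnd2 stood at 609 CPM in the control, 555 in LFD-BAT-Exos, 552 in HFD-vWAT-Exos, 529 in HFD-BAT-Exos, 486 in HFD-iWAT-Exos, 468 in LFD-iWAT-Exos and 1020.2 in LFD-vWAT-Exos. The 5 lower libraries were 1.10-fold to 1.30-fold under the control, and LFD-vWAT-Exos was 1.68-fold over it (1.64 to 1.72). Thus Ccnd1 and Ccnd2 lay on opposite sides of the control in that library and on the same side in the other 5.

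Cyclin D3 is the D-type cyclin best known from lymphocytes and from differentiating muscle. Its transcript lay on both sides of the control. Ccnd3 stood at 80.4 CPM in the control and 80.3 in LFD-BAT-Exos, at 56.1 in LFD-iWAT-Exos and 62.5 in HFD-vWAT-Exos, and at 86.7 in HFD-BAT-Exos, 94.4 in HFD-iWAT-Exos and 108 in LFD-vWAT-Exos. The libraries with LFD-iWAT-Exos and HFD-vWAT-Exos were low. The ratio was 1.43-fold lower than the control with LFD-iWAT-Exos (1.34 to 1.54) and 1.29-fold lower with HFD-vWAT-Exos (1.20 to 1.38).

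The E-type cyclins had the fewest counts of the 10 genes and so the widest intervals. Ccne1, which encodes cyclin E1, stood at 12.3 CPM in the control, 15.9 in LFD-iWAT-Exos, 5.15 in LFD-vWAT-Exos, 12.4 in LFD-BAT-Exos, 10.3 in HFD-iWAT-Exos, 10.4 in HFD-vWAT-Exos and 11.1 in HFD-BAT-Exos, from 66 to 392 counts. LFD-iWAT-Exos was 1.29-fold over the control (1.10 to 1.51) and LFD-vWAT-Exos 2.39-fold under it (1.82 to 3.18). For the other 4 libraries the interval included equal levels, so no difference from the control was detectable at this depth.

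Ccne2, which encodes cyclin E2, was higher than the control in LFD-vWAT-Exos, where Ccne1 was lower. Its levels were 5.68 CPM in the control, 4.66 in HFD-vWAT-Exos, 5.56 in HFD-BAT-Exos, 6.11 in LFD-BAT-Exos, 8.98 in HFD-iWAT-Exos, 9.77 in LFD-iWAT-Exos and 27.9 in LFD-vWAT-Exos, from 100 to 358 counts. It was above the control with the iWAT exosomes of both diets, by 1.72-fold for LFD (1.38 to 2.15) and 1.58-fold for HFD (1.24 to 2.01), and 4.91-fold with LFD-vWAT-Exos (4.0 to 6.07). The intervals of HFD-vWAT-Exos and of both BAT libraries included the level of the control.

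Among the CIP/KIP inhibitors, the p27 transcript was higher in all 6 exosome libraries and the p21 transcript mainly in a single library. Cdkn1a, which encodes p21 and is a classical p53 target, stood at 183 CPM in the control, 173 in HFD-vWAT-Exos, 185 in HFD-iWAT-Exos, 190 in LFD-BAT-Exos, 207 in HFD-BAT-Exos, 219 in LFD-iWAT-Exos and 584 in LFD-vWAT-Exos. The first 6 lay within 1.26-fold of each other, and LFD-vWAT-Exos was 3.18-fold over the control (3.06 to 3.31). Cdkn1b, which encodes p27, stood at 105 CPM in the control, 113 in LFD-iWAT-Exos, 118 in HFD-vWAT-Exos, 122 in LFD-BAT-Exos, 131 in HFD-BAT-Exos, 144 in HFD-iWAT-Exos and 214 in LFD-vWAT-Exos. The ratio to the control ran from 1.08 (1.02 to 1.14) to 1.38 (1.30 to 1.46) in 5 exosome libraries. With LFD-vWAT-Exos it was 2.05 (1.94 to 2.17). All 6 counting intervals of Cdkn1b excluded equal levels, as those of all 10 genes did with LFD-iWAT-Exos. The share of all genes for which this held was not computed.

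The INK4 inhibitors varied least outside LFD-vWAT-Exos. Cdkn2a, the gene of p16INK4a and p19ARF, stood at 268 CPM in the control, 256 in HFD-iWAT-Exos, 269 in HFD-BAT-Exos, 282 in LFD-iWAT-Exos, 287 in HFD-vWAT-Exos, 300.1 in LFD-BAT-Exos and 78.2 in LFD-vWAT-Exos. It was 3.44-fold lower with LFD-vWAT-Exos than in the control (3.21 to 3.68), and within 1.17-fold over the other 6 libraries. Cdkn2b, the gene of p15INK4b and a known TGF-beta target, stood at 98.2 CPM in the control, 67.4 in LFD-vWAT-Exos and 83.4 to 97.4 in the other 5. Cdkn2c, the gene of p18INK4c, stood at 37.8 CPM in the control, 44.7 in LFD-iWAT-Exos, 43.0 in HFD-iWAT-Exos, 19.3 in LFD-vWAT-Exos and 36.6 to 37.4 in the other 3. Both were lowest with LFD-vWAT-Exos, by 1.46-fold (1.35 to 1.58) and 1.96-fold (1.70 to 2.26) against the control.

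**Figure D2:**
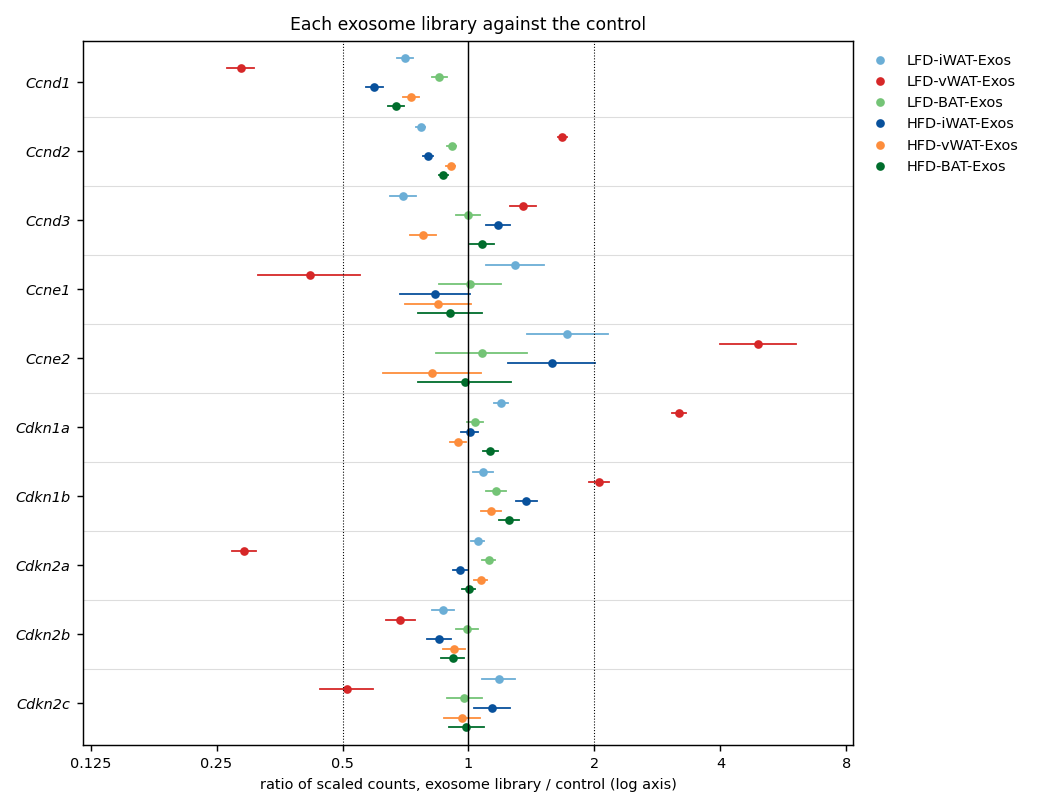
Ratio of each exosome library to the control for the 10 genes (log axis, points are ratios of TMM-scaled counts, bars are exact 95% counting intervals, dotted lines mark a 2-fold difference). Points past 2-fold are seen with LFD-vWAT-Exos alone, from 3.50-fold lower (Ccnd1) to 4.91-fold higher (Ccne2).

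Counted by the 2-fold rule, 6 of 10 genes were apart from the control with LFD-vWAT-Exos, where 30.6% of all genes were. Those higher were Ccne2, Cdkn1a and Cdkn1b (13.2% of all genes were apart and higher), and those lower were Ccnd1, Ccne1 and Cdkn2a (17.4% apart and lower). Cdkn2c, at 1.96-fold, was just short of the rule. The call of Cdkn1b was lost with scaling by total counts (log2 ratio 0.95, against 1.03), where Cdkn2c came in (-1.05), and the calls of Cdkn1b and Ccne1 were lost with FPKM plus 1 (0.90 and -0.90). None of the 10 was apart in the other 5 exosome libraries. There, 5.09% of all genes were apart with LFD-iWAT-Exos, 2.91% with HFD-iWAT-Exos, 1.98% with HFD-vWAT-Exos, 1.76% with LFD-BAT-Exos and 2.27% with HFD-BAT-Exos. Their median log2 ratio with LFD-vWAT-Exos was -0.06, beside -0.04 over all genes.

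All 10 genes lay outside the range of the other 6 libraries in LFD-vWAT-Exos, 5 above (Ccnd2, Ccnd3, Ccne2, Cdkn1a, Cdkn1b) and 5 below (Ccnd1, Ccne1, Cdkn2a, Cdkn2b, Cdkn2c), beside the 79.9% of all genes given above. By at least 2-fold this held for 4, Ccne2 and Cdkn1a above and Ccnd1 and Cdkn2a below, beside 19.3% of all genes. Ccnd1, at 2.09-fold, was just inside that limit and Ccne1, at 1.99-fold, just outside it. The 2 directions ran with the length by which the FPKM were scaled. It was 1393 to 4210 bases for the 5 lower genes, and 7580 to 16274 bases for the higher ones other than Cdkn1a (3074 bases). For some genes this length exceeds the exon bases in GENCODE vM21, as for Ccnd3 (16274 against 8775) and Ccne2 (7784 against 3495). By the longest annotated transcript the split is less clean. The higher Ccne2 and Ccnd3 have 3006 and 3858 bases, and the lower Ccnd1 has 3740. Over all genes, the median log2 ratio of LFD-vWAT-Exos to the control was -0.28 in the shortest of 10 length bins and 0.26 in the longest, against medians between -0.05 and 0.04 in the bins of the other 5 exosome libraries. The log2 ratios of the 6 genes apart were 1.03 to 2.28 in size. A bin median does not bound the ratio of a single gene, and the part of length in these ratios was not tested.

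Without LFD-vWAT-Exos, the cyclins varied more than most inhibitors. From the lowest to the highest of 6 libraries, the difference was 2.10-fold for Ccne2, 1.68-fold for Ccnd3 and Ccnd1, 1.55-fold for Ccne1 and 1.30-fold for Ccnd2. For the inhibitors it was 1.38-fold for Cdkn1b, 1.26-fold for Cdkn1a, 1.22-fold for Cdkn2c, 1.18-fold for Cdkn2b and 1.17-fold for Cdkn2a. The ranges of the cyclins, other than Ccnd2, were wider than those of 75.8% to 91.1% of the 12263 genes with a mean of at least 1 CPM, and those of Cdkn2a and Cdkn2b wider than 21.0% and 22.9%. Part of the width for Ccne1 and Ccne2 is counting error, since they had the fewest counts.

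Levels of different genes were compared per length, by the deposited FPKM (fragments per kilobase of exon, scaled to the mapped fragments). Of the summed D-type FPKM, Ccnd2 made 45.7% in the control, 47.1% to 51.1% in 5 exosome libraries and 79.0% in LFD-vWAT-Exos, while Ccnd1 went from 49.7% in the control to 14.6% there. The sum itself, 99.3 FPKM in LFD-vWAT-Exos, lay inside the 78.1 to 109 FPKM of the others, so the make-up differed at a similar total. Ccne2 made 18.2% of the E-type FPKM in the control, 17.7% to 29.7% in 5 exosome libraries and 72.4% in LFD-vWAT-Exos.

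The balance of the inhibitor classes also differed in that library. CIP/KIP FPKM summed to 72.1 to 87.5 in 6 libraries and to 207 in LFD-vWAT-Exos, and INK4 FPKM to 261 to 301 in 6 libraries and to 105 there. The ratio of CIP/KIP to INK4 FPKM was 0.255 to 0.315 in the 6 libraries and 1.97 in LFD-vWAT-Exos. Cdkn2a made 69.5% of the INK4 FPKM in the control and 50.2% in LFD-vWAT-Exos. Its count adds transcripts of p16INK4a and p19ARF, so the INK4 sum is not of INK4 transcripts alone. The inhibitors followed here over the cyclins followed here gave 3.00 in LFD-vWAT-Exos, 3.12 in the control and 3.76 to 4.30 in the other 5 libraries. The control and LFD-vWAT-Exos were thus the lowest. These class sums leave out the inhibitors Cdkn1c and Cdkn2d, which were placed in a pathway list. Because FPKM depend on the lengths, which reached 16274 bases for Ccnd3, shares and class ratios are less certain than the differences between libraries. The lengths depart unevenly from the annotated exon bases, with 12354 against 9409 for Ccnd2 and 4210 against 4709 for Ccnd1.

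**Figure D3:**
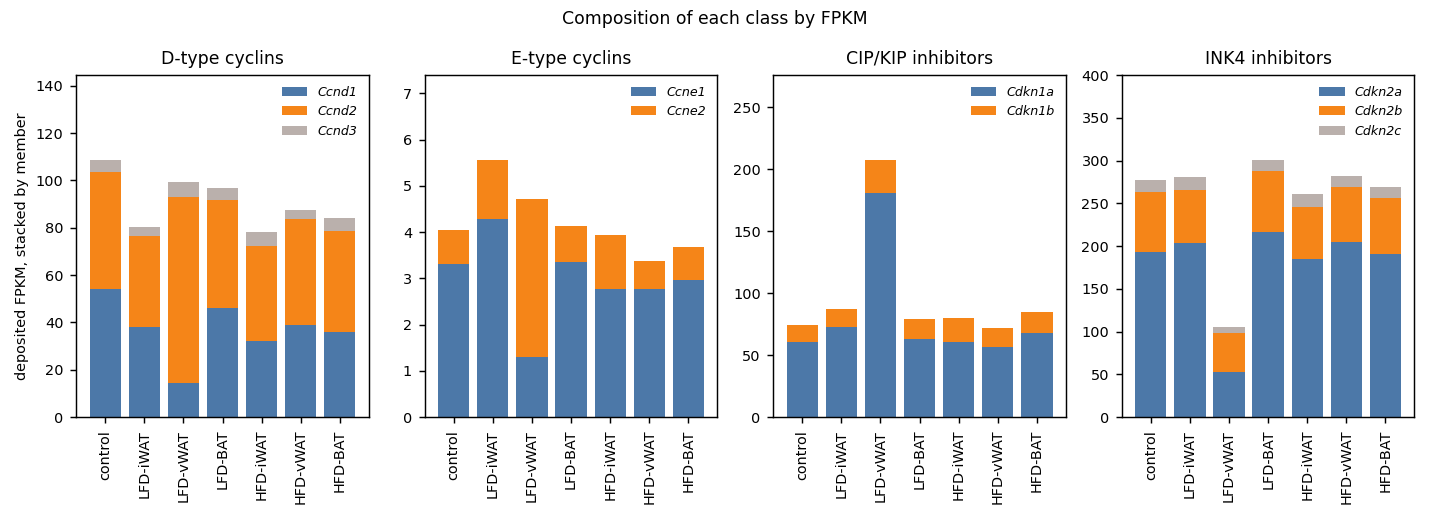
Deposited FPKM of the members of each class, stacked, in the 7 libraries (linear axes from 0). Ccnd2 takes 79.0% of the D-type sum and Ccne2 72.4% of the E-type sum in LFD-vWAT-Exos, where the INK4 sum is 105 FPKM and the CIP/KIP sum 207 FPKM.

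The diet of the donor was compared within each depot. For vWAT, HFD exosomes gave levels nearer to the control than LFD exosomes for all 10 genes. LFD-vWAT-Exos lay outside the range of the other 6 libraries for 79.9% of all genes. The share of all genes nearer to the control with HFD exosomes was not computed. HFD-vWAT-Exos was higher than LFD-vWAT-Exos for Cdkn2a by 3.68-fold (3.44 to 3.94), Ccnd1 by 2.55-fold (2.36 to 2.76) and Ccne1 by 2.03-fold (1.53 to 2.71), and lower for Ccne2 by 6.00-fold (4.79 to 7.56) and Cdkn1a by 3.36-fold (3.23 to 3.50). These 5 of 10 genes were apart, beside 29.7% of all genes (17.6% higher and 12.1% lower). The call of Ccne1 was lost with DESeq2 size factors and with FPKM plus 1. All of them are the genes that set the LFD-vWAT-Exos library apart from the control, and both comparisons share that library.

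For iWAT and BAT no gene of the 10 was apart between diets, beside 2.54% and 1.95% of all genes. The differences in iWAT were largest for Ccnd3, 1.68-fold higher with HFD-iWAT-Exos (1.57 to 1.81), and Ccne1, 1.55-fold lower (1.30 to 1.86). Cdkn1b was 1.27-fold higher (1.21 to 1.34) and Ccnd1 1.18-fold lower (1.13 to 1.25). In BAT the largest was Ccnd1, 1.27-fold lower with HFD-BAT-Exos (1.21 to 1.33). Thus Ccnd1 was lower with HFD exosomes in iWAT and BAT and higher in vWAT.

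**Figure D4:**
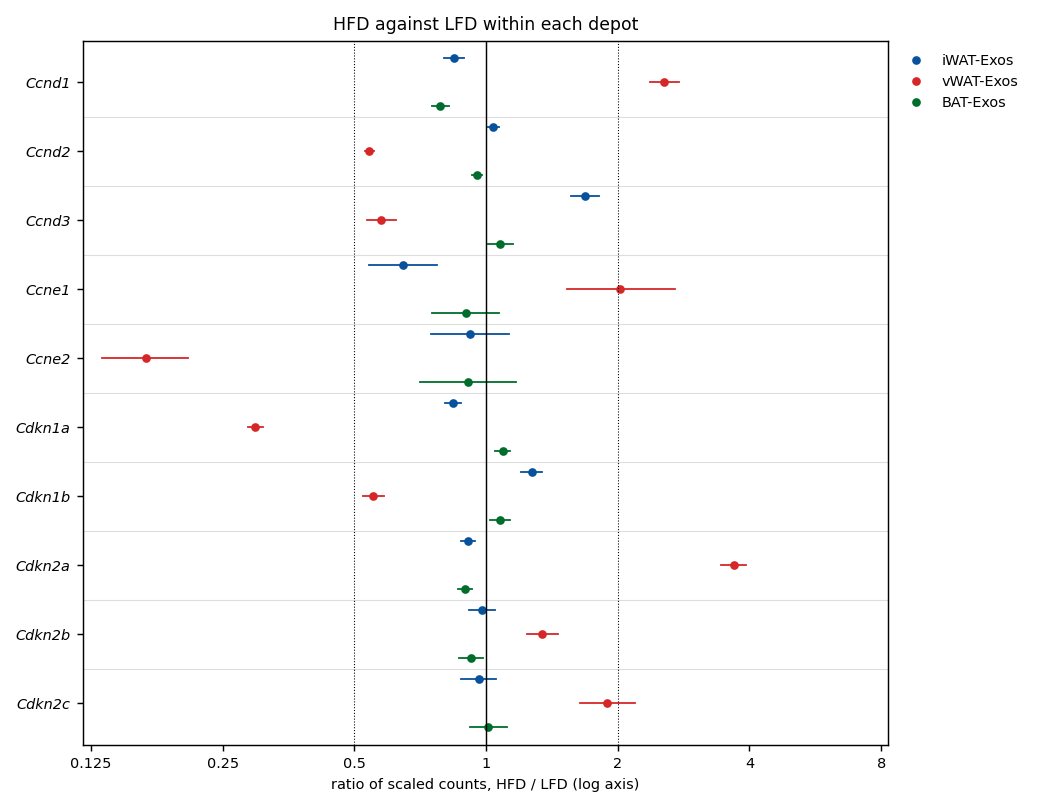
Ratio of HFD to LFD exosome libraries within iWAT, vWAT and BAT (log axis, points are ratios of TMM-scaled counts, bars are exact 95% counting intervals, dotted lines mark a 2-fold difference). The vWAT points reach 6.00-fold lower (Ccne2) and 3.68-fold higher (Cdkn2a), and the iWAT and BAT points stay within 1.68-fold.

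Depots were compared within each diet. Between LFD-vWAT-Exos and LFD-iWAT-Exos, 7 of 10 genes were apart, beside 29.1% of all genes. Ccne2 (2.86-fold), Cdkn1a (2.66-fold) and Ccnd2 (2.18-fold) were higher with LFD-vWAT-Exos, beside 11.9% of all genes apart and higher. Cdkn2a (3.61-fold), Ccne1 (3.09-fold), Ccnd1 (2.47-fold) and Cdkn2c (2.31-fold) were lower, beside 17.2% apart and lower. The call of Ccne2 was lost with FPKM plus 1. In the HFD pair of the same depots no gene was apart, beside 2.32% of all genes, and the largest difference was Ccne2, 1.93-fold lower with HFD-vWAT-Exos than with HFD-iWAT-Exos (1.49 to 2.50).

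Between BAT and iWAT no gene was apart in either diet, beside 5.13% of all genes for LFD and 1.95% for HFD. Ccne2 was the furthest in both, 1.60-fold lower with LFD-BAT-Exos (1.29 to 1.99) and 1.61-fold lower with HFD-BAT-Exos (1.27 to 2.06) than with the iWAT exosomes of the same diet. Ccnd3 was 1.43-fold higher with LFD-BAT-Exos (1.33 to 1.54) and 1.09-fold lower with HFD-BAT-Exos (1.02 to 1.16).

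Diet, depot and exosomes as such were each fitted over 6 or 7 libraries in edgeR (quasi-likelihood). None of the 10 genes was called for diet (depot as block), for vWAT against iWAT or for BAT against iWAT (diet as block), where 0% of 13441 genes were called in each, or for AT-Exos against the control, where 0.00709% of 14102 genes, a single gene, was. None reached an unadjusted p under 0.05 in these fits, and over all genes 70, 364, 122 and 120 had an unadjusted p under 0.05 in the 4 fits. DESeq2 called none of the 10 among 8, 10, 2 and 5 genes in all, and limma-voom none among 0, 0, 0 and 1. The lowest adjusted p among the 10 (edgeR, Benjamini-Hochberg over all genes) was 0.89 for diet, 0.784 for vWAT, 1 for BAT and 1 for AT-Exos. Ccnd1, lower in 6 of 6 exosome libraries, had a log2 difference of -0.64 (SE 0.45, adjusted p = 1 by edgeR), and Cdkn1b, higher in 6 of 6, one of 0.42 (SE 0.35, adjusted p = 1). There were 2 residual degrees of freedom for diet and depot and 5 for AT-Exos, so these tests do not show that levels were equal.

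The fits were repeated with single libraries left out. Without LFD-vWAT-Exos, Ccnd1 had a log2 difference of -0.49 between AT-Exos and the control (edgeR, unadjusted p = 0.0162, adjusted p = 0.929), and Ccne2 one of -0.95 between vWAT and iWAT (unadjusted p = 0.0137, adjusted p = 0.883) and one of -0.69 between BAT and iWAT (unadjusted p = 0.0142, adjusted p = 0.651). Ccnd1 and Ccnd3 then differed with diet by -0.30 and 0.43 (edgeR, unadjusted p = 0.0286 and 0.0394, both with an adjusted p of 1). Ccne2 differed with diet by -1.34 without LFD-BAT-Exos and by -1.36 without HFD-BAT-Exos, and Cdkn1a by -1.01 without HFD-BAT-Exos (edgeR, unadjusted p = 0.0265, 0.0179 and 0.0457, adjusted p = 0.872, 0.65 and 0.83). None of these was called. Without HFD-vWAT-Exos, where LFD-vWAT-Exos is the lone vWAT library, 9 of the 10 genes, all but Cdkn2b, were called for vWAT against iWAT, among 5541 of 13922 genes.

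The other genes of the pathway were taken from 5 lists. Their counts of genes apart with LFD-vWAT-Exos stand beside the 13.2% of all genes apart and higher and the 17.4% apart and lower in that library. Those with LFD-iWAT-Exos stand beside 5.09% of all genes apart, with 391 higher and 242 lower of 12432 genes. Of 26 E2F target genes of S phase, 26 were higher with LFD-iWAT-Exos than in the control, 3 of them apart, with a median log2 ratio of 0.62 beside -0.00019 over all genes. That library also had the highest Ccne1 of all 7 and the highest Ccne2 of those other than LFD-vWAT-Exos. With HFD-iWAT-Exos 17 of the 26 were higher (median 0.10), and set directly against LFD-iWAT-Exos 26 of 26 were lower (median -0.53). With LFD-vWAT-Exos 18 of 26 were lower, 6 apart and lower and 1 apart and higher (median -0.42), so 7 of 26 were apart where 30.6% of all genes were. Lower E2F targets were not particular to that library. With HFD-vWAT-Exos 24 of 26 were lower (median -0.18), with LFD-BAT-Exos 22 (-0.17) and with HFD-BAT-Exos 15 (-0.05).

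The list's most variable members were Tk1 (thymidine kinase), Rrm2 (a ribonucleotide reductase subunit), Uhrf1 (a factor of maintenance methylation) and Gins2 (a subunit of the replicative helicase). Tk1 stood at 12.7 CPM in the control, 27.5 in LFD-iWAT-Exos, 2.42 in LFD-vWAT-Exos and 8.57 to 12.3 in the other 4. Rrm2 stood at 27.1 CPM in the control, 51.4 in LFD-iWAT-Exos, 6.94 in LFD-vWAT-Exos and 21.9 to 29.3 in the other 4. Both were thus highest in the first of these exosome libraries and lowest in the second, like Ccne1 and unlike Ccne2.

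Of the 27 kinases, RB family members and E2F factors, 25 were measured with LFD-iWAT-Exos, where 3 were apart and higher, and 24 with LFD-vWAT-Exos, where 1 was apart and higher and 2 lower (median -0.09), a smaller share than the 30.6% of all genes. Ccna2, the cyclin of S phase, stood at 34.5 CPM in the control, 88.5 in LFD-iWAT-Exos (2.57-fold, 2.36 to 2.79), 20.7 in LFD-vWAT-Exos and 30.5 to 49.3 in the other 4. Rb1, the substrate of cyclin D kinases, stood at 30.7 CPM in the control, 93.4 in LFD-vWAT-Exos (3.04-fold, 2.77 to 3.35) and 28.6 to 36.9 in the other 5, while its relative Rbl1 stood at 13.5 CPM in the control and 6.55 in LFD-vWAT-Exos. Rb1 and Rbl1 therefore lay on opposite sides of the control. Cks1b, a small CDK-binding subunit, stood at 35.2 CPM in the control, 56.7 in LFD-iWAT-Exos and 18.5 in LFD-vWAT-Exos.

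Of 20 genes measured from the list of p53 and its targets, 15 were lower with LFD-vWAT-Exos, 5 of them apart, and 1 was apart and higher (median -0.26), in the library with the highest Cdkn1a. The 6 apart of 20 are close to the 30.6% over all genes. Eda2r, Btg2 and Ccng1, all known p53 targets, were 3.74-fold, 3.21-fold and 3.36-fold lower than in the control, while Aen, at 10.0 CPM in the control and 9.28 in LFD-vWAT-Exos, was not. Aen was highest in LFD-iWAT-Exos, at 24.4 CPM. So Cdkn1a differed in direction from these 3 genes, while 5 of the 20 were higher with LFD-vWAT-Exos. With HFD-vWAT-Exos 15 of the 20 were lower too (median -0.07), and in the remaining exosome libraries 8 to 13 were.

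The list of 20 mitogen and TGF-beta inputs held 6 genes apart and higher and 3 apart and lower with LFD-vWAT-Exos (median 0.53), where 13.2% of all genes were apart and higher and 17.4% apart and lower. Fosl1, an AP-1 subunit, stood at 19.7 CPM in the control, 352 in LFD-vWAT-Exos and 27.2 to 53.3 in the other 5. Jun, its partner, stood at 98.2 CPM in the control and 429 in LFD-vWAT-Exos, and Smad7, an inhibitor of TGF-beta signalling, at 26.1 and 196 CPM. Egr1, an immediate early gene, went the other way, from 104 CPM in the control to 10.9 CPM.

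Of 14 genes that act in the degradation of these proteins, 2 were apart and higher and 2 apart and lower with LFD-vWAT-Exos (median 0.23), close to the 13.2% and 17.4% of all genes. Usp28, a deubiquitinase, stood at 26.4 CPM in the control and 70.1 in LFD-vWAT-Exos, and Cul4a, a cullin, at 174 and 350.0 CPM. Dtl, which directs the CUL4 ligase to p21, stood at 19.9 CPM in the control, 36.4 in LFD-iWAT-Exos and 9.44 in LFD-vWAT-Exos. Cul1, the cullin of the SCF ligase that acts on p27 and cyclin E, stood at 135 CPM in the control, 101 in LFD-iWAT-Exos and 206 in LFD-vWAT-Exos. No gene of the 5 lists was called in any of the 4 fits.

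**Figure D5:**
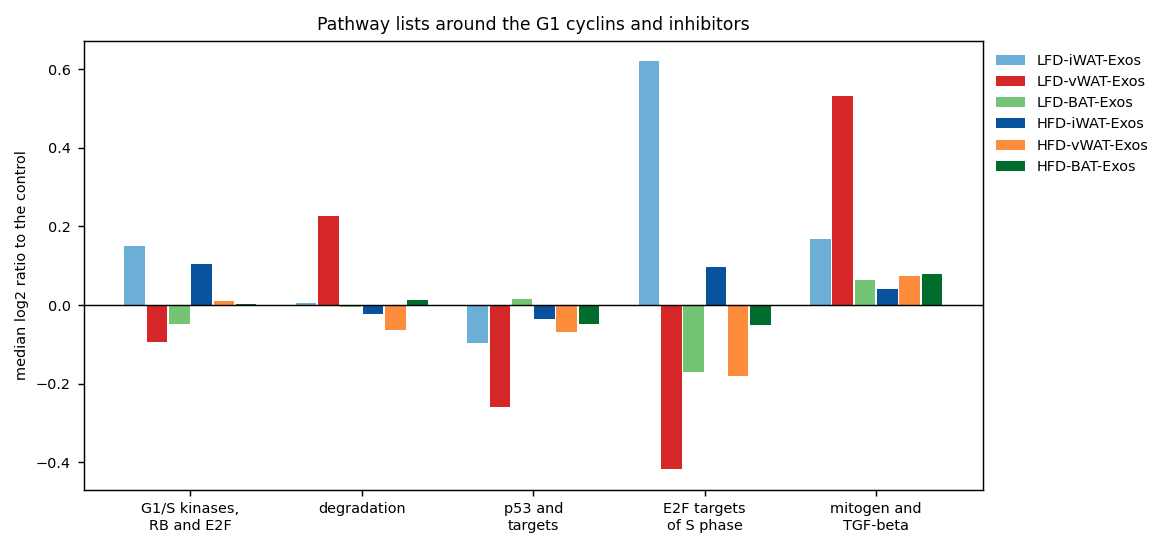
Median log2 ratio to the control of the measured genes of 5 pathway lists in each exosome library. The E2F targets stand at 0.62 in LFD-iWAT-Exos and -0.42 in LFD-vWAT-Exos, and the mitogen and TGF-beta inputs at 0.53 in LFD-vWAT-Exos.

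The genes with the nearest pattern were sought for the 7 members with a mean of at least 10 CPM and a 2-fold range, as the smallest root-mean-square difference of centred log2 CPM over the 7 libraries among 9350 genes. They were Gpx7 and Gsta4 for Ccnd1 (0.09 and 0.10), Ubtf and Hexim1 for Ccnd2 (0.04 and 0.05), Pmvk and Tceb2 for Ccne1 (0.09 and 0.11), and Snx25 and Bnip3l-ps for Cdkn1a (0.04 and 0.04). For the others they were Ogt and Slc25a36 for Cdkn1b (0.05 and 0.05), Smdt1 and Pcdhb5 for Cdkn2a (0.06 and 0.07), and Slc43a3 and Gpd1l for Cdkn2c (0.04 and 0.05). These likenesses rest on the LFD-vWAT-Exos library, since 0 of the 14 genes stayed nearest over the other 6.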

How the data were processed

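RNA of 7 3T3-L1 libraries, 1 per group, was sequenced in paired ends from strand-marking libraries. Adapters and poor bases were removed by the authors in fastp, HISAT2 did the mapping, StringTie and gffcompare built a merged transcriptome, and StringTie gave the FPKM. Versions are not given in the sources used here. A human reference is named in the methods, yet the IDs are of mouse genes, and which mouse build was used is not given in the sources used here. The deposited counts are raw whole numbers per gene made by the authors, 13493560 to 24345291 per library, and the deposited FPKM are the same genes scaled by the authors to length and library total.

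TMM factors (edgeR 4.0.16, R 4.3.3) ran from 1.00 to 1.01, with 0.950 in LFD-vWAT-Exos. Ratios between 2 libraries carry exact (Clopper-Pearson) 95% counting intervals, which take reads as independent, since no molecular identifiers were used. A gene entered a ratio if 1 library or both reached 1 CPM. A gene was apart at a log2 ratio of at least 1 in size, with a prior count of 2, and an interval excluding equal levels. All 13 pairs were treated alike. The fits used filterByExpr, edgeR's quasi-likelihood F test and Benjamini-Hochberg adjustment over all genes at 0.05, and each SE was taken from the size of the log2 difference over the root of its F. The alternatives to edgeR were limma-voom (limma 3.58.1) and DESeq2 1.42.0. The method was tested on simulated data. Simulated pairs held counting error alone, and simulated fits a smaller spread than the common dispersion of 0.0937 found for diet and depot. The simulation therefore does not give the power of these fits. Positions and read sharing (exon bases and 31-mers in other genes, uncertain at 20%) came from GENCODE vM21, promoters from RefSeq.

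The members, lists, alternatives and rules were chosen with earlier results of these data known. From each list, the text names up to 4 genes with the widest range among those with a mean of at least 10 CPM. The genes with the nearest pattern were the nearest 2 for each member with a mean of at least 10 CPM and a log2 range of at least 1. Oraov1 and Ints8 were named after their values were seen. Alternatives were scaling by total counts or DESeq2 size factors, FPKM plus 1, a prior count of 0.5, a minimum of 10 CPM or none, a 1.5-fold rule, no filter, and each exosome library left out. No columns of the files were left out.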

Additional observations from a re-analysis of the deposited data

Results flagged for a closer look

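For 6 genes, HFD and LFD exosomes differed in opposite directions in 2 depots. Each counting interval excluded equal levels, and the log2 ratios were at least 1 apart. The share of all genes that meet this rule was not computed. With 1 library per group, none of these differences between depots was tested, and all of them involve LFD-vWAT-Exos, whose level was outside the range of all other libraries for 79.9% of genes. Between vWAT and iWAT, the log2 ratio of HFD to LFD was higher in vWAT by 1.59 for Ccnd1 (1.35 against -0.24), by 1.63 for Ccne1 (1.01 against -0.63) and by 2.02 for Cdkn2a (1.88 against -0.14). In vWAT minus iWAT it was -1.54 for Ccnd3 (-0.79 against 0.75) and -1.2 for Cdkn1b (-0.86 against 0.35). In BAT minus vWAT it was -1.7 for Ccnd1 (-0.35 against 1.35), -2.04 for Cdkn2a (-0.16 against 1.88) and 1.88 for Cdkn1a (0.13 against -1.75).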

How the results depend on the processing

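The counts of genes apart stayed the same, or within 1.5 times, in all 13 pairs under scaling by total counts, DESeq2 size factors, FPKM plus 1, a prior count of 0.5, a minimum of 10 CPM and none, but not always with the same genes. In LFD-vWAT-Exos against control, Cdkn2c took the place of Cdkn1b under total counts, and Cdkn1b and Ccne1 were lost with FPKM plus 1. Ccne1 was lost in HFD-vWAT-Exos against LFD-vWAT-Exos with DESeq2 size factors and with FPKM plus 1, and Ccne2 in LFD-vWAT-Exos against LFD-iWAT-Exos with FPKM plus 1. With a 1.5-fold rule in place of 2-fold, the count became 1 in LFD-iWAT-Exos against control, 2 in HFD-iWAT-Exos against control, 2 in HFD-iWAT-Exos against LFD-iWAT-Exos, 9 in HFD-vWAT-Exos against LFD-vWAT-Exos, 2 in HFD-vWAT-Exos against HFD-iWAT-Exos, 1 in LFD-BAT-Exos against LFD-iWAT-Exos and 1 in HFD-BAT-Exos against HFD-iWAT-Exos. No log2 ratio of a gene called apart changed sign. For 3 genes not called, whose intervals included equal levels, the sign did change with total counts and FPKM plus 1: Ccnd3 in LFD-BAT-Exos against control (-0.0010 to 0.0069 and 0.0057), Cdkn2a in HFD-BAT-Exos against control (0.0013 to -0.0092 and -0.0091) and Cdkn2c in HFD-BAT-Exos against LFD-BAT-Exos (0.017 to -0.0014 and -0.0013). Of the 130 ratios, 22 moved beyond their counting interval with FPKM plus 1, 8 with total counts, 2 with DESeq2 size factors and 0 with a prior count of 0.5. Without length scaling, the shares of counts were 66.6% (control) and 85.5% (LFD-vWAT-Exos) for Ccnd2, 31.6% and 84.4% for Ccne2, 63.7% and 73.1% for Cdkn1a, and 66.4% and 47.4% for Cdkn2a. Leaving out each exosome library in turn gave 0 to 9 genes called for vWAT against iWAT, the 9 without HFD-vWAT-Exos, and 0 in the other 3 fits. Of the genes with the nearest pattern, 0 were kept over 6 libraries.

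No paired analysis was possible because each group has 1 library and no label ties animals or cultures of different groups. The blocks in the fits are depot and diet, not shared animals or cultures. The limits are 1 library per group, a single control shared by 6 comparisons, 66 to 392 counts for Ccne1 and 100 to 358 for Ccne2, and the LFD-vWAT-Exos library, whose treatment and whose own preparation cannot be told apart.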
